A study of Mus musculus with 48 samples.

Results

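The nuclear genes of oxidative phosphorylation were described in airspace macrophages recovered by bronchoalveolar lavage. Genes were taken by symbol, as those named Ndufa, Ndufb, Ndufc, Ndufs or Ndufv with a number, Sdha to Sdhd, Uqcr, Cox4 to Cox8, or Atp5. The table listed 24411 genes, of which 84 carried such a name, and the 79 with at least 10 counts in at least 3 of the 24 mice were kept. They comprised 35 genes of complex I, 4 of complex II, 8 of complex III, 15 of complex IV and 17 of complex V. All 79 were among the 12634 genes tested. The names left out were Cox7b2, Cox8b and Cox8c, which had 0 counts, Cox4i2, with 10 or more counts in 1 mouse and a highest count of 20, and Ndufa4l2, with a highest count of 8. Just inside the threshold stood Cox6a2, with 15 mice at 10 or more counts and a highest count of 46, and the other 78 genes passed in all 24 mice.

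The study asked what Siglec-F, a receptor for sialylated glycans on these cells, does after lung injury. Male mice either lacked Siglec-F (knockout, KO) or were wild type (WT). Each genotype had 3 mice at day 7, 3 at day 14 and 3 at day 21 after intratracheal bleomycin at 2.5 units/kg, which causes acute lung injury, and 3 naive mice that are listed as saline controls at day 0. The labels used here name no strain, age or kind of knockout allele. Sample titles number the mice separately within each group, and those numbers are used here. Column names carry further numbers that run across the groups, whose meaning is not given and which were not used. Libraries held 24877049 to 47457085 counts. Siglecf had 0 to 25 counts in the 12 KO mice and 2631 to 20368 counts in the 12 WT mice.

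Oxidative phosphorylation takes place at the inner mitochondrial membrane, where complexes I and II pass electrons from NADH and succinate to ubiquinone, complex III passes them to cytochrome c, and complex IV passes them to oxygen. The proton gradient that complexes I, III and IV build drives ATP synthesis by complex V. Resident alveolar macrophages are known for a lipid-handling, oxidative metabolism, and macrophages newly derived from monocytes are often described as more glycolytic. Most subunits are nuclear genes, and a few come from mitochondrial DNA, of which the table held 0 genes.

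To show the regulatory sequence in front of genes that moved in opposite directions, the 250 bases before the RefSeq start (GRCm38.p6) are printed for 2 genes that were higher at day 7 in both genotypes, Atp5k (chr5:108434400-108434649, minus strand), which encodes subunit e of ATP synthase, and Sdhd (chr9:50603850-50604099, minus strand), a membrane anchor of complex II, and for 2 that were lower, Ndufa4 (chr6:11907451-11907700, minus strand) and Cox6b2 (chr7:4753095-4753344, minus strand), both of complex IV. Capitals mark matches to GCGCANGCG, a form of the motif of the respiratory gene activator NRF1 with N for any base, and to CCGGAAG, the ETS core bound by GABPA, searched on both strands.
Atp5k: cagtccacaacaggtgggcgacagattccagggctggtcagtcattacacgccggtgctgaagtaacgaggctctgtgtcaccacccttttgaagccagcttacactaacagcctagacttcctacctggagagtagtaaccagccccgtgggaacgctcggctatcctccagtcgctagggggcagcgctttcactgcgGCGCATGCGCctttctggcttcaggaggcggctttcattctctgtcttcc
Sdhd: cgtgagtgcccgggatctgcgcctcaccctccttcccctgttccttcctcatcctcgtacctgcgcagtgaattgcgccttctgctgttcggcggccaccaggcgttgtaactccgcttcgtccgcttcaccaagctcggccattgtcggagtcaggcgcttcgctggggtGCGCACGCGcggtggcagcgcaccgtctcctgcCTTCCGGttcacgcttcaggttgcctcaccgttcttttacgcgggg
Ndufa4: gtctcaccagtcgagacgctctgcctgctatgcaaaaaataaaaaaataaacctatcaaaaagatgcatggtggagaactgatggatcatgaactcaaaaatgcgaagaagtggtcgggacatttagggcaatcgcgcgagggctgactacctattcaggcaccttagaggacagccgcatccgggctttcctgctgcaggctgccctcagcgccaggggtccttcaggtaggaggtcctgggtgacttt
Cox6b2: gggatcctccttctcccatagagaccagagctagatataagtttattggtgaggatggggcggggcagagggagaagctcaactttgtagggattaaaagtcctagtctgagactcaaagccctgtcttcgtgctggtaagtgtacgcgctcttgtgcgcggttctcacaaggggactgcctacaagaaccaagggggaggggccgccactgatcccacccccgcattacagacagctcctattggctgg
The Atp5k capitals hold GCGCATGCG on both strands, and Sdhd held GCGCANGCG with C in the free place and the ETS core on the opposite strand. No such letters stood in the Ndufa4 and Cox6b2 windows.

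RefSeq promoters were matched for 67 of the 79 genes. The window counted ran from 250 bases before the start to 50 bases after it, longer than the sequences printed. The 27025 genes compared were all those with a RefSeq promoter, beyond the 12634 tested. They were not matched to the 67 for expression or base composition. GCGCANGCG stood in 13 of the 67 (19.4%), against 5.33% of 27025 genes, and GCGCATGCG, which every such count includes, in 6 (8.96%), against 1.49%. CCGGAAG was found in 11 (16.4%), against 7.05% of all. TCAAGGTCA, an estrogen-related receptor motif, was found in 1 (1.49%), against 0.366%, and the YY1 motif AAGATGGCG in 0 of 67, against 0.607%. These are matches of letters in a fixed window, not sites of binding. Of 13 genes with a promoter that rose at day 7 in both genotypes, 3 held GCGCANGCG (Atp5k, Ndufa8 and Sdhd), beside 10 of 42 genes that were called in neither genotype.

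Per kilobase of merged exon length, the genes differed widely in level. Atp5a1, the alpha subunit of the catalytic head of complex V, stood at 243 CPM (counts scaled to library size) per kb and Cox6b1 at 242 CPM per kb. At the other end were the muscle isoform Cox6a2 at 0.747 CPM per kb and Atp5s, which is named for complex V but is not one of its structural subunits, at 0.937 CPM per kb. Exon models were matched for 78 genes, since 2 annotated genes share the name Atp5o.

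The genes moved together from mouse to mouse. Over 24 mice, 63 of the 79 correlated above 0.5 with the mean of the rest (Pearson's r on log2 CPM, a description over libraries that share a scaling). With group means removed, 70 of the 79 did. Cox8a, the common isoform of the smallest complex IV subunit, had r = 0.95. The 4 genes below 0 were Atp5s at -0.33, Cox6b2 at -0.26, Cox7a2l at -0.18 and Atp5sl at -0.17, and of these Cox6b2 and Cox7a2l were at 0.29 and 0.42 with group means removed. Shares of other genes above 0.5 are not given, so the correlation is not shown to be particular to this set. Mice that stood apart from their group, such as WT naive mouse 1 and WT day 7 mouse 1, weigh on r, and r without them is not given.

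Mice within a group differed in the level of the whole set, measured as the mean of log2(CPM + 1). It was 6.38, 6.20 and 6.21 in KO day 7 mice, against 6.04, 6.04 and 6.06 in KO naive mice. In WT day 7 mice it was 6.59, 6.09 and 6.21, against 6.40, 5.95 and 6.08 in WT naive mice. The KO day 7 mice all lay above the KO naive mice, and the WT groups overlapped, with 1 high mouse in each. The counts of Rn45s, the precursor of ribosomal RNA and a sign of how well it was removed, moved with this level: Rn45s took 8.19% of the library of the high WT day 7 mouse (mouse 1) and 6.00% of that of the high WT naive mouse (mouse 1), against 0.743 to 4.75% in the other 22. Its part in the level was not tested beyond the fits with and without these mice given below.

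**Figure D1:**
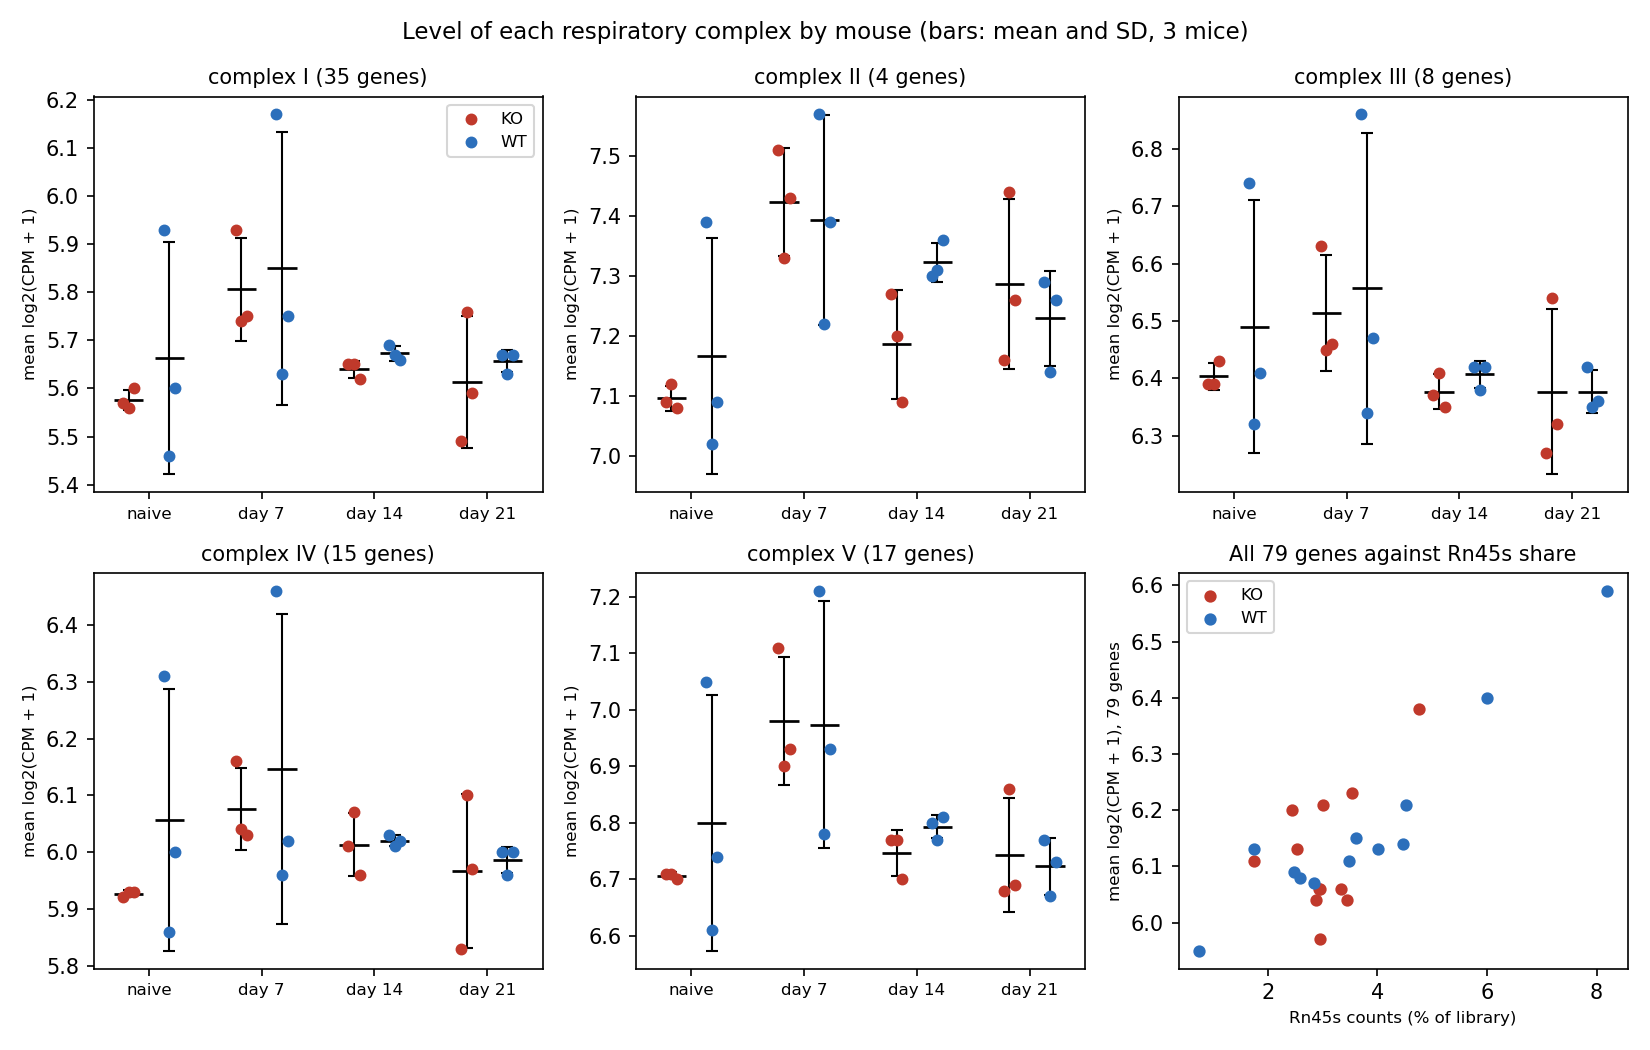
Mean log2(CPM + 1) of the genes of each complex (y axis) by time (x axis), with 1 point per mouse, KO left of WT, and bars for the mean and SD of 3 mice; the last panel plots the level of all 79 genes against the share of counts taken by Rn45s. The KO day 7 mice stand above the KO naive mice in every complex, 1 WT naive and 1 WT day 7 mouse stand above the others of their groups, and these are the 2 mice at 6.00 and 8.19% Rn45s.

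Each complex was summarised in the same way. Complex II had the largest difference between KO means, with 7.42 ± 0.091 at day 7 against 7.10 ± 0.022 in naive mice (SD, n = 3 each), and complex V stood at 6.98 ± 0.11 at day 7 against 6.71 ± 0.0083 in naive mice. Complex I was at 5.81 ± 0.11 and 5.58 ± 0.024, complex III at 6.51 ± 0.1 and 6.40 ± 0.025, and complex IV at 6.08 ± 0.075 and 5.93 ± 0.004 in KO day 7 and KO naive mice. The WT day 7 and naive mice overlapped in all 5 complexes, as in complex I, at 5.85 ± 0.29 at day 7 and 5.66 ± 0.24 in naive mice. By days 14 and 21 complex I was back at 5.64 ± 0.017 and 5.62 ± 0.14 in KO mice and at 5.67 ± 0.013 and 5.66 ± 0.021 in WT mice. As a share of all counts, the 79 genes took 0.966 ± 0.059% in KO day 7 mice against 0.857 ± 0.0025% in KO naive mice, and 0.754 ± 0.015% in WT day 21 mice against 0.897 ± 0.078% in WT naive mice (SD, n = 3 each). These shares are of unscaled totals and differ from the scaled level of the 79 genes. That level was 6.10 ± 0.031 in WT day 21 mice against 6.14 ± 0.23 in WT naive mice. In KO mice the share was 0.799 ± 0.011% at day 14 and 0.793 ± 0.043% at day 21, below naive mice. The scaled level there was 6.10 ± 0.033 and 6.09 ± 0.13, against 6.05 ± 0.01 in KO naive mice.

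The day 7 response in KO mice held more higher than lower calls among these genes. By edgeR's quasi-likelihood test with Benjamini-Hochberg adjustment over all genes, 26 of the 79 differed from KO naive mice at an adjusted p under 0.05, 22 higher and 4 lower. Over all genes tested 34.1% were called, 19.7% higher and 14.4% lower, so the number called was near the background and the direction leaned upward. The median log2 fold change was 0.23, against 0.02 over all genes, and 69 of the 79 were above 0. Fold changes were small, from 1.28-fold to 1.61-fold among called genes that rose, apart from Cox6a2. The count was 13 (9 higher, 4 lower) when KO day 7 mouse 1 was left out, and 16 (12 higher, 4 lower) when KO naive mouse 2 was. In these bulk samples fewer cells of a type and less RNA per cell cannot be told apart. Markers of recruited monocyte-derived macrophages moved with day 7 (15 of 15 called higher in each genotype), with a summed level of 12800 to 25400 CPM in KO day 7 mice against 1260 to 1520 CPM in KO naive mice, and 13700 to 17400 CPM in WT day 7 mice against 1530 to 2070 CPM in WT naive mice. Resident markers summed to 9100 to 13300 CPM in KO day 7 mice against 28000 to 29300 CPM in KO naive mice, and to 9400 to 11800 CPM in WT day 7 mice against 25400 to 32200 CPM in WT naive mice. Their part in the changes was not tested.

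In WT mice the same number, 26, were called at day 7, 21 higher and 5 lower. Over all genes 35.5% were called, 20.2% higher and 15.3% lower. The median was 0.17 against 0.02 over all genes, with 60 of 79 above 0. Here the count moved with single mice and with the groups fitted. Shares of all genes called under such alternative fits are not given. A shift of the 79 genes was therefore not separated from a shift over all genes. The count was 4 (2 higher, 2 lower) with the compared groups fitted alone, against 44 (39 higher, 5 lower) in KO mice. With all groups it was 7 (2 higher, 5 lower) without WT day 7 mouse 1, 8 (3 higher, 5 lower) without WT naive mouse 2 and 11 (8 higher, 3 lower) without WT naive mouse 3. Leaving out both mice with the highest Rn45s shares gave 22 (17 higher, 5 lower), and the Rn45s share as a covariate gave 15 (5 higher, 10 lower). In KO mice that covariate gave 38 (33 higher, 5 lower). Of the 79 genes, 48 were higher and 6 lower in every KO day 7 mouse than in every KO naive mouse (29.1% and 25.1% of all genes), and 9 were higher and 4 lower in the WT comparison (23.1% and 18.8% of all genes).

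The KO and WT responses at day 7 share no library, and 17 genes rose in both, which is 77.3% of those that rose in KO mice and 81% of those that rose in WT mice. Over all genes tested these shares were 78.6% and 76.5%, so the overlap was near that of other genes. Without WT day 7 mouse 1, 2 of the 79 genes were called higher in WT mice. The 4 that fell in both were Cox6b2, Cox7a2l, Ndufa4 and Uqcrc2, all of those that fell in KO mice. None was called in opposite directions.

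**Figure D2:**
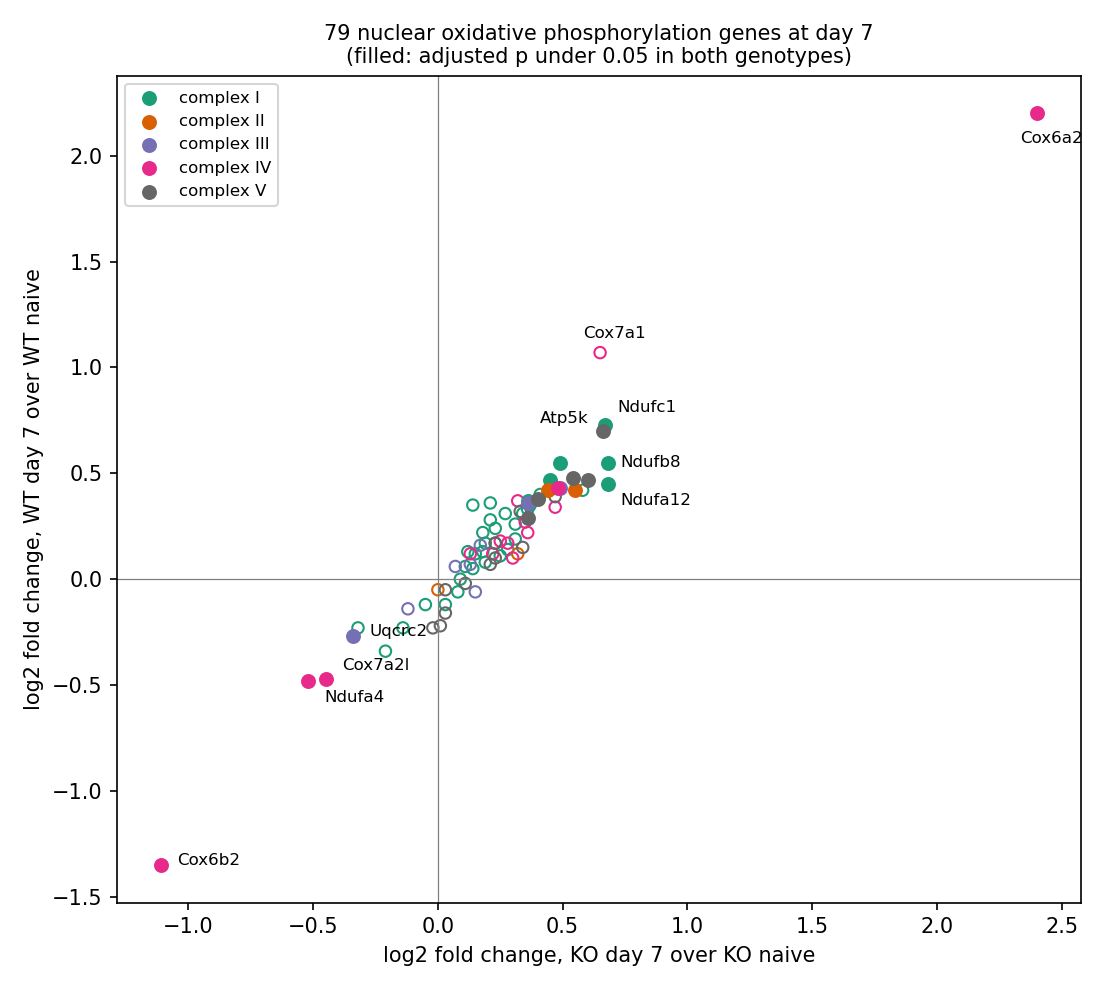
Log2 fold change at day 7 over naive in KO mice (x axis) and WT mice (y axis) for 79 genes coloured by complex, with filled points for genes at an adjusted p under 0.05 in both genotypes. The points run from Cox6b2 at -1.11 in KO mice and -1.35 in WT mice to Cox6a2 at 2.40 and 2.20.

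Complex I was counted by accessory and core genes. Of 28 accessory genes, 7 rose in KO mice and 8 in WT mice at day 7 and none fell, near the 19.7% and 20.2% of all genes called higher, with medians of 0.23 and 0.30. The number of all 79 genes called higher in WT mice moved with single mice. It was 2 without WT day 7 mouse 1, and larger again when WT naive mouse 1 was left out as well. It also fell when either of the other WT naive mice was left out. Of the 7 core genes, which carry the flavin and iron-sulfur clusters, none rose in either genotype, and the medians were 0.03 in KO mice and -0.12 in WT mice. The difference between accessory and core genes was not tested.

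Ndufa12, an accessory subunit of complex I, had 76, 59.3 and 57.9 CPM in KO day 7 mice, against 39.6, 36.2 and 44.6 CPM in KO naive mice. In WT mice it had 67.7, 52.2 and 58.9 CPM at day 7, against 50.3, 37.4 and 43.6 CPM in naive mice. Neither pair of groups overlapped, and the log2 fold changes were 0.68 (SE 0.12, adjusted p = 0.00021) in KO mice and 0.45 (SE 0.12, adjusted p = 0.0073) in WT mice. The WT call was lost in 1 of the 6 fits that left out 1 mouse. The level of Ndufa12 was back at 40 to 44.2 CPM in KO day 21 mice, and it was called lower at day 21 than at day 7 in both genotypes.

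Ndufb8 and Ndufc1, also accessory subunits of complex I, followed. Ndufb8 had 126, 112 and 95.8 CPM in KO day 7 mice, against 67.3, 68.9 and 71.7 CPM in KO naive mice, a log2 fold change of 0.68 (SE 0.18, adjusted p = 0.0055). In WT mice its groups overlapped, with 139, 88.1 and 103 CPM at day 7 against 97, 59.5 and 69.3 CPM in naive mice, and the call there was lost without WT day 7 mouse 1, WT naive mouse 2 or WT naive mouse 3, or with the Rn45s share as a covariate. Ndufc1 had 30.7, 26.1 and 26.5 CPM in KO day 7 mice, against 18, 16.6 and 17.8 CPM in KO naive mice. In WT mice Ndufc1 had 42.3, 23.8 and 22.7 CPM at day 7, against 21.1, 15.9 and 16.6 CPM in naive mice, and at day 14 23.5, 27.5 and 24.5 CPM, a call that was lost in 5 of the 6 fits that left out 1 mouse. Ndufb8 lies on the same strand as an overlapping annotated gene, so its counts are uncertain.

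Among core genes of complex I, Ndufs1, which encodes the largest iron-sulfur subunit, was lower after bleomycin. It had 62.9, 64.3 and 62.1 CPM in KO day 14 mice and 63.8, 59.1 and 58.3 CPM in KO day 21 mice, against 76.2, 75.5 and 76.6 CPM in KO naive mice. In WT mice Ndufs1 had 67.6, 66.4 and 73.6 CPM at day 7, 64.8, 68.8 and 68.3 CPM at day 14 and 57.5, 58.5 and 58.2 CPM at day 21, against 83.9, 76.1 and 83.3 CPM in naive mice. No bleomycin group named here overlapped its naive group, and the log2 fold changes at day 21 were -0.33 (SE 0.075, adjusted p = 0.0029) in KO mice and -0.48 (SE 0.075, adjusted p = 6e-05) in WT mice. Ndufs1 was called in 5 of the 6 comparisons with naive mice. The call at day 7 in WT mice was lost in 4 of the 6 fits that left out 1 mouse, and at day 7 in KO mice it had 72.3, 61.8 and 73.5 CPM. Genes on the opposite strand overlap Ndufs1, and no source used here says whether reads were counted by strand.

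Ndufv1, which binds NADH, fell in WT mice to 71.5, 68 and 71.5 CPM at day 14 and 76.6, 74.5 and 70.6 CPM at day 21, against 133, 92.3 and 93.5 CPM in WT naive mice. The groups did not overlap, with log2 fold changes of -0.60 (SE 0.15, adjusted p = 0.0049) and -0.53 (SE 0.15, adjusted p = 0.011), and the call at day 21 was lost without the naive mouse at 133 CPM. In KO mice Ndufv1 had 73.5, 77.4 and 81.2 CPM at day 14 and 84.9, 86.1 and 72.5 CPM at day 21, against 95.6, 103 and 103 CPM in naive mice, and was not called.

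Complex II is succinate dehydrogenase, the complex shared with the citric acid cycle. Sdhb, its iron-sulfur subunit, had 135, 120 and 121 CPM in KO day 7 mice, against 87.3, 89.2 and 80.9 CPM in KO naive mice, and in WT mice 134, 116 and 129 CPM at day 7 against 108, 84.9 and 90.5 CPM in naive mice. Sdhb was called higher in 4 of the 6 comparisons with naive mice, the most among the 79 genes, with log2 fold changes of 0.55 (SE 0.13, adjusted p = 0.0028) at day 7 and 0.45 (SE 0.13, adjusted p = 0.017) at day 21 in KO mice and 0.42 at days 7 and 14 in WT mice (SE 0.13, adjusted p = 0.016 and 0.019). The call at day 7 in WT mice was lost without WT day 7 mouse 1, WT naive mouse 2 or WT naive mouse 3 and with the Rn45s share as a covariate, and that at day 14 without WT naive mouse 2, WT naive mouse 3 or WT day 14 mouse 3. At day 21 in KO mice 1 of 3 mice, at 91.9 CPM, lay near the naive mice, and the call was lost without either of the others or KO naive mouse 3.

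Sdhd had 154, 131 and 147 CPM in KO day 7 mice, against 104, 107 and 108 CPM in KO naive mice, and 169, 125 and 144 CPM in WT day 7 mice, against 118, 101 and 108 CPM in WT naive mice. Both pairs were apart, with log2 fold changes of 0.44 (SE 0.11, adjusted p = 0.0055) in KO mice and 0.42 (SE 0.12, adjusted p = 0.0068) in WT mice, the WT call being lost without WT day 7 mouse 1. Sdha, the flavoprotein that oxidises succinate, was not called, with 344, 315 and 350 CPM in KO day 7 mice against 343, 330 and 334 CPM in KO naive mice. Sdhc, the other membrane anchor, had 151, 130 and 138 CPM in KO day 7 mice against 108, 116 and 112 CPM in KO naive mice, and was not called either.

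In complex III the 2 directions met. Uqcrc2, a core protein of the matrix side, was called lower in all 6 comparisons with naive mice, the only one of the 79 genes so called. It had 107, 97.2 and 112 CPM at day 7, 96, 104 and 109 CPM at day 14 and 115, 103 and 98.3 CPM at day 21 in KO mice, against 136, 130 and 136 CPM in KO naive mice. In WT mice Uqcrc2 had 127, 102 and 107 CPM at day 7, 108, 102 and 101 CPM at day 14 and 105, 104 and 106 CPM at day 21, against 157, 120 and 130 CPM in naive mice. The groups overlapped in WT mice at day 7 and not elsewhere, and log2 fold changes ran from -0.38 to -0.27 (SE 0.098, adjusted p = 0.0051 to 0.034), but the call at day 7 in WT mice and that at day 21 in KO mice were each lost in 4 of the 6 fits that left out 1 mouse.

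Uqcrfs1, the Rieske iron-sulfur protein that carries electrons within complex III, fell in WT mice at days 14 and 21, both by 0.43 on the log2 scale (SE 0.14, adjusted p = 0.02 and 0.018). It had 70.2, 66 and 72.6 CPM at day 14 and 74.2, 69 and 64.6 CPM at day 21, against 109, 86.9 and 84.9 CPM in WT naive mice. Both calls were lost without the naive mouse at 109 CPM, and each without 1 later mouse. In KO mice it had 66.8, 80.9 and 83.5 CPM at day 14 and 78.7, 89.7 and 67.5 CPM at day 21, against 88.1, 96.2 and 94.1 CPM in naive mice, and was not called. The small accessory genes of the complex Uqcrb and Uqcrq rose at day 7 in both genotypes, Uqcrq by a log2 fold change of 0.49 (SE 0.15, adjusted p = 0.015) in KO mice and 0.43 (SE 0.15, adjusted p = 0.03) in WT mice. The Uqcrb calls were lost in 5 of 6 fits that left out 1 KO mouse and in 3 of 6 that left out 1 WT mouse. The Uqcrq calls were lost without KO day 7 mouse 1 or KO naive mouse 2 in KO mice and without WT day 7 mouse 1, WT naive mouse 2 or WT naive mouse 3 in WT mice.

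**Figure D3:**
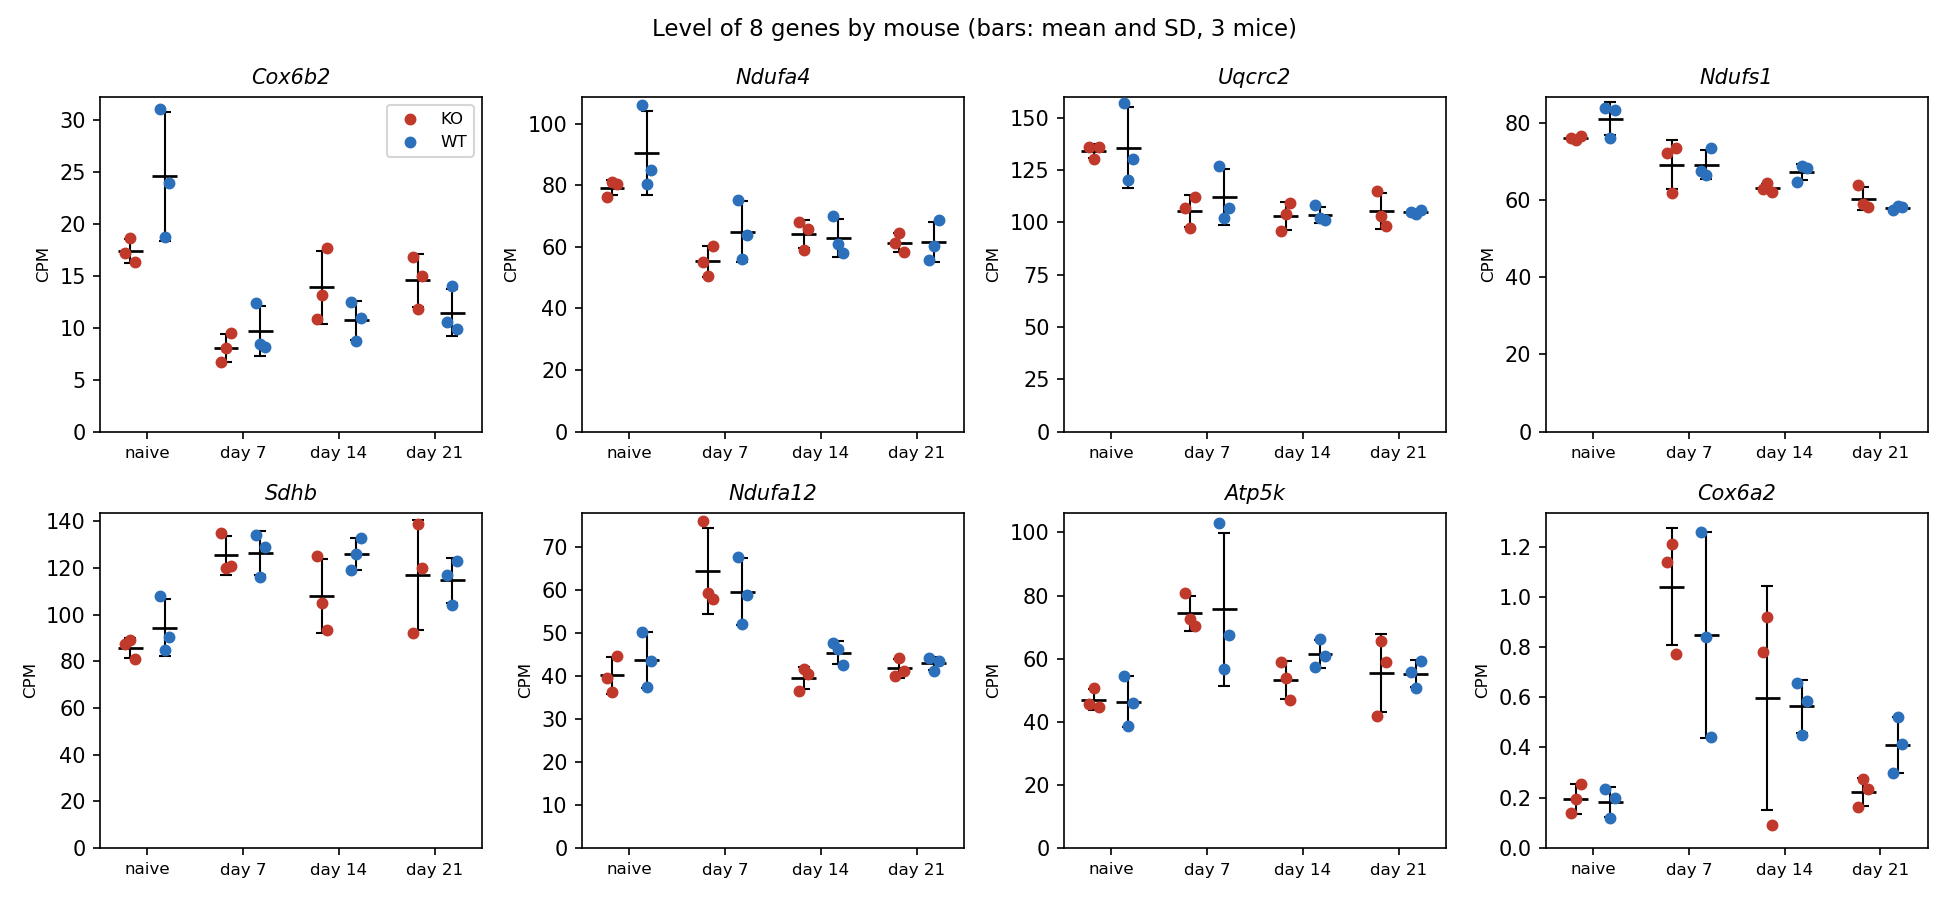
CPM (y axis) by time (x axis) for 8 genes picked for their values, with 1 point per mouse, KO left of WT, and bars for the mean and SD of 3 mice. Cox6b2 and Ndufa4 were lowest at day 7 in KO mice, Uqcrc2 and Ndufs1 stayed low to day 21, Ndufa12 and Atp5k peaked at day 7, and Cox6a2 stayed at or under 1.26 CPM in every mouse.

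Complex IV held the largest changes in both directions, in genes known as tissue isoforms. The largest rise was that of Cox6a2, which reached the threshold of the rule through bleomycin mice, where it was higher. Cox6b2, known as the testis isoform of a subunit on the outer side of the enzyme, fell to 6.71, 8.04 and 9.44 CPM in KO day 7 mice, against 17.2, 18.6 and 16.3 CPM in KO naive mice. It had 12.4, 8.4 and 8.13 CPM in WT day 7 mice, against 31, 18.7 and 23.9 CPM in WT naive mice. The groups were apart in both genotypes, with log2 fold changes of -1.11 (SE 0.22, adjusted p = 0.00062) in KO mice and -1.35 (SE 0.22, adjusted p = 9.4e-05) in WT mice, and both calls held in each alternative run.

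The later course of Cox6b2 differed in its values. It had 10.8, 13.1 and 17.7 CPM at day 14 and 16.8, 11.8 and 15 CPM at day 21 in KO mice, where it was not called, and 12.5, 8.74 and 10.9 CPM at day 14 and 10.5, 14 and 9.85 CPM at day 21 in WT mice, where it was called with log2 fold changes of -1.19 and -1.09 (SE 0.22 each, adjusted p = 0.00037 and 0.00079). Between day 7 and day 21 it rose in KO mice by a log2 fold change of 0.85 (SE 0.22, adjusted p = 0.012), a call lost without KO day 7 mouse 1 or KO day 21 mouse 1. The difference between the genotypes in the response, tested directly, was 0.87 (SE 0.31, unadjusted p = 0.011, adjusted p = 0.27) at day 14 and 0.84 (SE 0.31, unadjusted p = 0.013, adjusted p = 0.29) at day 21, and did not pass. Over the alternatives the adjusted p ran from 0.076 to 0.66 at day 14 and from 0.1 to 0.6 at day 21. The common isoform Cox6b1 was not called, at 191, 166 and 172 CPM in KO day 7 mice against 144, 150 and 149 CPM in KO naive mice.

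Ndufa4, named for complex I and since placed in complex IV, fell in 5 of the 6 comparisons. It had 55.1, 50.4 and 60.3 CPM in KO day 7 mice against 76.3, 80.9 and 80.3 CPM in KO naive mice, a log2 fold change of -0.52 (SE 0.12, adjusted p = 0.0021). In WT mice Ndufa4 had 75.3, 55.9 and 63.7 CPM at day 7, 69.9, 61 and 58 CPM at day 14 and 55.8, 60.4 and 68.6 CPM at day 21, against 106, 80.3 and 84.9 CPM in naive mice. Every bleomycin group named here lay below its naive group, and the one comparison not called was KO day 14, with 67.9, 59 and 65.7 CPM. The call at day 21 in KO mice, at 61.1, 64.5 and 58.3 CPM, was lost in 5 of the 6 fits that left out 1 mouse.

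Cox7a2l, known for joining complexes III and IV into supercomplexes, had 163, 153 and 164 CPM in KO day 7 mice, against 216, 217 and 224 CPM in KO naive mice, and 198, 159 and 150 CPM in WT day 7 mice, against 260, 212 and 231 CPM in WT naive mice. The groups were apart in both genotypes, with log2 fold changes of -0.45 (SE 0.13, adjusted p = 0.0086) and -0.47 (SE 0.13, adjusted p = 0.0064). At day 14 in KO mice it had 176, 251 and 249 CPM, so 1 mouse was low and 2 were above the naive mice.

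Cox6a2, the heart and skeletal muscle isoform, had 1.14, 1.21 and 0.773 CPM in KO day 7 mice, against 0.138, 0.193 and 0.254 CPM in KO naive mice, a log2 fold change of 2.40 (SE 0.65, adjusted p = 0.0066). In WT mice it had 1.26, 0.842 and 0.442 CPM at day 7 against 0.233, 0.118 and 0.198 CPM in naive mice, a log2 fold change of 2.20 (SE 0.65, adjusted p = 0.013), which was lost without WT day 7 mouse 1 or WT naive mouse 2. Its counts were 6, 8 and 11 in KO naive mice and 6, 4 and 10 in WT naive mice. Those mice alone would not have met the rule, so the rise is tied to how the gene was kept. The level of Cox6a2 stayed far below that of the common isoform Cox6a1, at 222, 184 and 176 CPM in KO day 7 mice. Cox6a2 overlaps Itgad on the opposite strand, and Itgad moved the other way, with means of 0.999 CPM in KO day 7 mice against 20.4 CPM in KO naive mice and 0.986 CPM in WT day 7 mice against 25.8 CPM in WT naive mice. Itgam, a marker of recruited macrophages that does not overlap Cox6a2, moved the same way as Cox6a2, with means of 417 CPM in KO day 7 mice against 4.49 CPM in KO naive mice and 351 CPM in WT day 7 mice against 4.20 CPM in WT naive mice. Dendritic cell markers were also higher at day 7 (4 of 7 called higher and 1 lower in KO mice, 6 higher and 1 lower in WT mice). Of all genes 19.7% and 20.2% were called higher, and 14.4% and 15.3% lower. The summed dendritic level was 8.35 to 13.2 CPM in KO day 7 mice against 4.85 to 5.92 CPM in KO naive mice. In WT mice it was 11.2 to 12.7 CPM at day 7 against 2.84 to 4.49 CPM in naive mice. Of 10 T and NK cell markers, 8 were called higher and 1 lower in KO mice, and 9 and 1 in WT mice. Their summed level was nevertheless lower at day 7 in both genotypes. Of 3 B cell markers 2 and 1 were called higher, and of 5 erythroid markers 3 and 1, with none lower. The part of these lists in the change was not tested.

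Cox7a1, the muscle partner of Cox7a2, was called in WT mice, with 3.59, 2.06 and 2.76 CPM at day 7 and 2.71, 2.29 and 3.28 CPM at day 21, against 1.79, 1.06 and 1.19 CPM in naive mice. The log2 fold changes were 1.07 (SE 0.39, adjusted p = 0.039) and 1.05 (SE 0.39, adjusted p = 0.047), and they were lost in 4 and 5 of the 6 fits that left out 1 mouse. Among the common subunits, Cox5b, which binds zinc near the matrix side, had 184, 147 and 144 CPM in KO day 7 mice against 111, 115 and 114 CPM in KO naive mice, a log2 fold change of 0.48 (SE 0.13, adjusted p = 0.0066). Cox4i1, the common regulatory subunit and the most counted complex IV gene, was not called, at 380, 337 and 328 CPM in KO day 7 mice against 310, 328 and 317 CPM in KO naive mice.

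In complex V 6 of the 17 genes rose in KO mice and 5 in WT mice at day 7, and none fell. Over all genes 19.7% were called higher and 14.4% lower in KO mice, and 20.2% and 15.3% in WT mice. The WT counts are subject to the same shifts with single mice. Without WT day 7 mouse 1, 2 of all 79 genes were called higher, and more again when WT naive mouse 1 was left out as well. Fewer were also called higher when either of the other WT naive mice was left out. Of 3 genes of the Fo membrane part 2 rose in each genotype, and of 4 peripheral stalk genes 3 rose in KO mice and 2 in WT mice. Of 5 genes of the F1 head none was called at day 7, with medians of 0.21 in KO mice and 0.07 in WT mice. These differences between parts were not tested.

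Atp5k had 80.7, 72.4 and 70.2 CPM in KO day 7 mice against 45.5, 50.7 and 44.7 CPM in KO naive mice, and 103, 56.6 and 67.4 CPM in WT day 7 mice against 54.6, 38.6 and 46 CPM in WT naive mice. Both pairs of groups were apart, with log2 fold changes of 0.66 (SE 0.18, adjusted p = 0.007) and 0.70 (SE 0.18, adjusted p = 0.0046), the second lost without WT day 7 mouse 1. Atp5j2, subunit f, had 121, 104 and 96.8 CPM in KO day 7 mice against 72.7, 67.6 and 72.7 CPM in KO naive mice, a log2 fold change of 0.60 (SE 0.14, adjusted p = 0.0026). Atp5g1, 1 of 3 genes for the rotating c-ring, rose in both genotypes, with 147, 117 and 113 CPM in KO day 7 mice against 104, 86.1 and 96.2 CPM in KO naive mice. Its calls were lost in 3 of 6 fits that left out 1 mouse in each genotype, and in WT mice also with the Rn45s share as a covariate or the compared groups alone.

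Atp5b, the catalytic beta subunit, fell in WT mice to 702, 713 and 707 CPM at day 14 and 671, 610 and 668 CPM at day 21, against 1060, 823 and 873 CPM in WT naive mice. The groups did not overlap, and the log2 fold changes were -0.38 (SE 0.1, adjusted p = 0.0067) and -0.50 (SE 0.1, adjusted p = 0.0007); the call at day 14 was lost without the naive mouse at 1060 CPM. In KO mice Atp5b had 696, 696 and 745 CPM at day 14 and 795, 747 and 669 CPM at day 21, against 857, 842 and 887 CPM in naive mice, which also did not overlap and were not called. The difference between the genotypes in this response at day 21 was 0.27 (SE 0.14, unadjusted p = 0.066, adjusted p = 0.51).

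**Figure D4:**
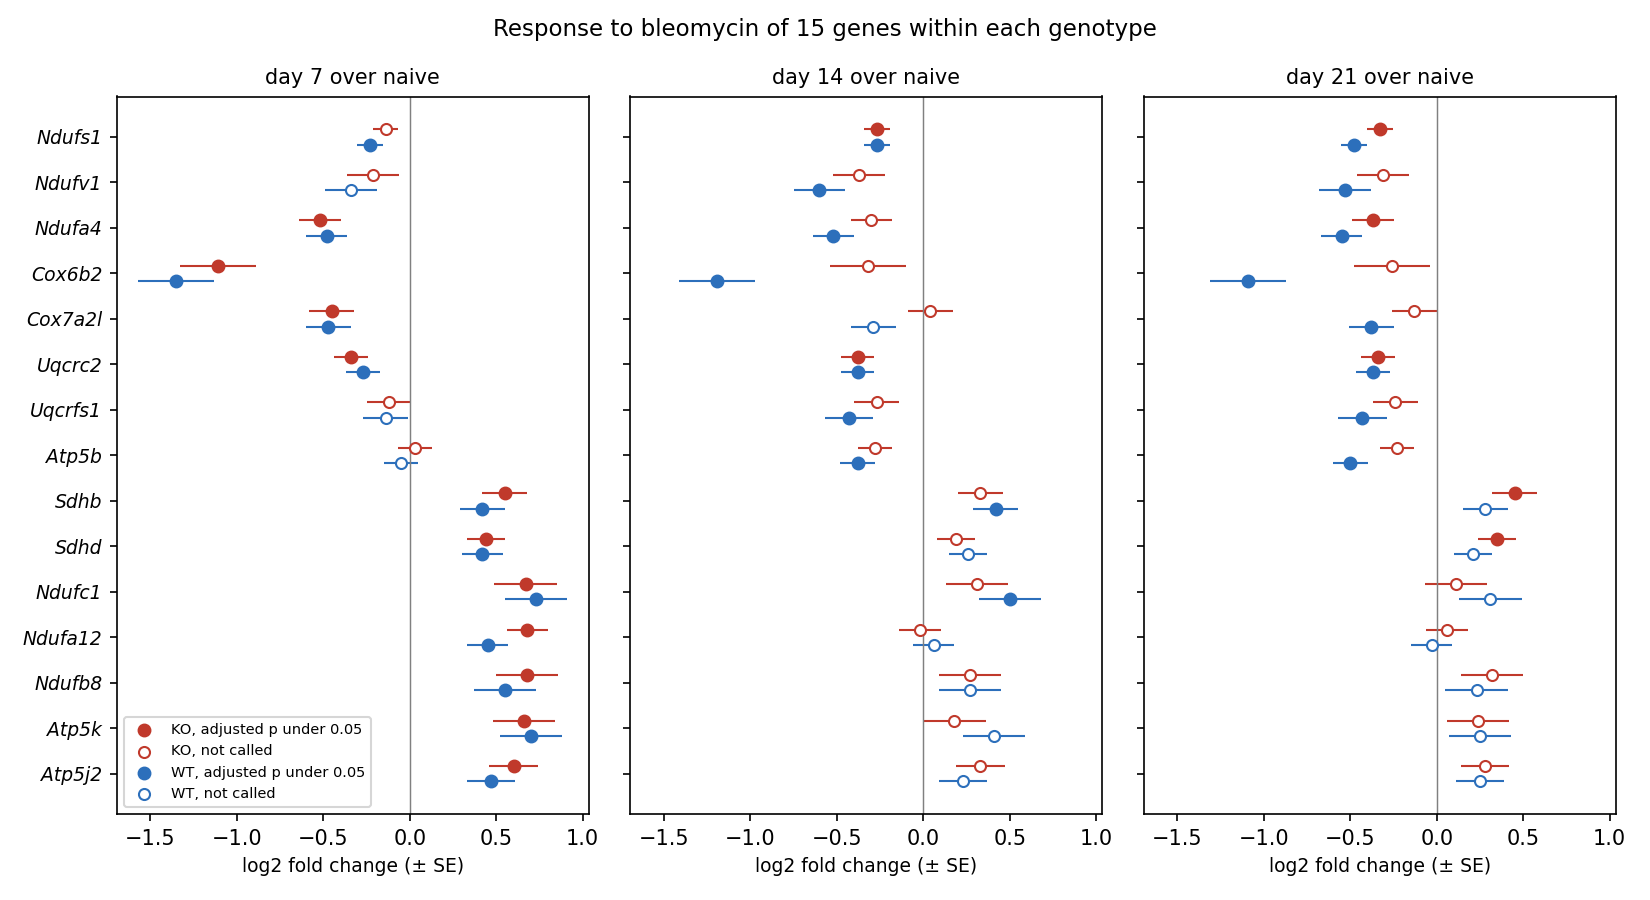
Log2 fold change over naive mice with its SE (x axis) for 15 genes (y axis), chosen after their values were seen, at days 7, 14 and 21, KO above WT, filled where the adjusted p was under 0.05. The 8 genes at the top lie at or below 0 except Cox7a2l in KO mice at day 14 and Atp5b in KO mice at day 7. The genes below them, from Sdhb to Atp5j2, stand farthest right at day 7, except that Sdhb in WT mice stands about as far right at day 14.

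After day 7 few genes stayed called. At day 14, 2 of the 79 were lower in KO mice (Uqcrc2 and Ndufs1) and none higher, where 16.9% of all genes were called (12% higher, 4.84% lower). In WT mice 2 were higher and 7 lower, where 32.1% were called (18.7% higher, 13.4% lower), and 5 higher and 10 lower under the length-dependent scaling. At day 21, 3 were higher and 3 lower in KO mice (21.9% of all genes called, 15% higher and 6.89% lower), and 2 were higher and 9 lower in WT mice (32.5% called, 18.8% higher and 13.7% lower). The shares of the 79 were 2.53 and 7.59% in KO mice and 11.4 and 13.9% in WT mice, below those backgrounds. The medians at day 21 were 0.05 in KO mice and -0.06 in WT mice, against 0.01 and 0 over all genes. Uqcrc2 and Ndufs1 were lower in both genotypes at day 14, and they and Ndufa4 at day 21.

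These later counts moved with single mice, and shares of all genes under the same fits are not given. Among KO mice the day 14 count became 0 when day 14 mouse 1 was left out, 4 when day 14 mouse 3 was and 1 when naive mouse 3 was. The KO count at day 21 became 10 when day 21 mouse 1 was left out, 1 for day 21 mouse 2 or naive mouse 3, 2 for day 21 mouse 3 or naive mouse 1, and 3 for naive mouse 2. In WT mice the count at day 21 was 6 without WT day 21 mouse 3 and 7 without WT naive mouse 3, all lower.

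Day 21 was compared with day 7 within each genotype. In KO mice 1 was called higher (Cox6b2) and 5 lower, where 14.9% of all genes were called (7.16% higher, 7.73% lower), and the median was -0.19, with 69 of 79 below 0. In WT mice 10 were lower and none higher, where 11.6% were called (5.49% higher, 6.15% lower), and the median was -0.23, with 72 of 79 below 0. The medians over all genes were 0.02 and 0. Ndufa12, Atp5g1 and Atp5f1, which encodes a subunit of the peripheral stalk, fell in both genotypes. Leaving out 1 mouse at a time, Atp5f1 was lost in 5 of 6 fits in KO mice and 4 of 6 in WT mice, Atp5g1 in 3 of 6 in each, and Ndufa12 in 0 of 6 in KO mice and 2 of 6 in WT mice. With the compared groups fitted alone the counts were 0 in KO mice and 2 in WT mice. The length-dependent scaling gave 3 higher and 5 lower in KO mice. Without WT day 7 mouse 1 the WT count was 2, and without WT day 7 mouse 2 it was 24. Without WT day 21 mice 1, 2 or 3 it was 3, 1 and 4. In KO mice it became 1 when day 7 mouse 1 or day 21 mouse 1 was left out, and 2 when day 21 mouse 3 was.

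Over the 6 comparisons with naive mice, 36 of the 79 genes were called at least once (45.6%, against 57.5% of all genes tested) and 43 never. Of the 36, 27 were called only higher (34.2% of the 79, against 29.6% of all genes) and 9 only lower (11.4%, against 26.3%), and none in both directions (1.61% of all genes). The 9 were Cox6b2, Cox7a2l, Ndufa4, Ndufs1, Ndufv1, Uqcrc2, Uqcrfs1, Atp5b and Atp5g2.

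None of the 79 genes passed edgeR's test between KO and WT mice at any time. In naive mice 0 were called (0.546% of all genes), with 1 at an unadjusted p under 0.05 (8.33% of all genes), and the median was -0.11 against 0 over all genes, with 73 of 79 below 0. That direction rested on WT naive mouse 1: without it the median was 0.03, with 54 of 79 above 0. Cox6b2 had the smallest p, at 17.2, 18.6 and 16.3 CPM in KO naive mice against 31, 18.7 and 23.9 CPM in WT naive mice, a log2 fold change of -0.49 (SE 0.22, unadjusted p = 0.034, adjusted p = 0.52).

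After bleomycin, 0 of the 79 were called between KO and WT mice at day 7 (0.00792% of all genes called), day 14 (0.135%) or day 21 (0.095%), with 1, 0 and 0 at an unadjusted p under 0.05 (4.59, 10 and 9.78% of all genes). At day 14, 3 were higher and 14 lower in every KO mouse than in every WT mouse (7.05% and 8.41% of all genes). At day 7 these counts were 0 and 0 (4.29% and 3.69%), and at day 21 they were 0 and 4 (7.53% and 8.24%). The medians were -0.04, -0.05 and -0.01, against 0, 0 and 0.01 over all genes. By DESeq2 and limma-voom the counts were also 0 at each time. Ndufb3, an accessory subunit of complex I, was lowest in p at day 7, with a log2 fold change of -0.31 (SE 0.13, adjusted p = 1). Sdha was lowest at day 14, with 325, 315 and 309 CPM in KO mice against 344, 349 and 361 CPM in WT mice and a log2 fold change of -0.15 (SE 0.079, adjusted p = 0.56), and Atp5b at day 21, with 0.18 (SE 0.1, adjusted p = 0.58).

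A difference between the genotypes in the response to bleomycin was called in 0 of the 79 genes at day 7 (0.00792% of all genes called), day 14 (0.332%) and day 21 (0.332%), with 0, 1 and 1 at an unadjusted p under 0.05 (6.14, 10.3 and 10.8% of all genes). The median difference, KO minus WT, was 0.06, 0.06 and 0.11, against 0.01 over all genes at each day. Its sign changed without WT naive mouse 1, to -0.07, -0.10 and -0.04, and at day 7 also without WT day 7 mouse 2, to -0.05.

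Genes that work with the chains were counted beside them. Among 47 tested assembly factors, 5 rose and 3 fell in KO mice at day 7, and 8 rose and 5 fell in WT mice, where 19.7% and 20.2% of all genes were called higher and 14.4% and 15.3% lower. Ndufaf1, a complex I assembly factor, had 5.88 ± 1.05 CPM in KO day 7 mice against 11.8 ± 0.707 CPM in KO naive mice (SD, n = 3 each), a log2 fold change of -1.01 (SE 0.16, adjusted p = 7.6e-05). Uqcc2 and Uqcc3, which help assemble complex III, moved apart in KO mice, Uqcc2 at 27 ± 4.35 CPM against 16.5 ± 0.655 CPM and Uqcc3 at 11.8 ± 1.15 CPM against 19.6 ± 2.04 CPM in day 7 and naive mice (SD, n = 3 each), with log2 fold changes of 0.71 (SE 0.18, adjusted p = 0.0041) and -0.73 (SE 0.14, adjusted p = 0.00041).

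Among 24 carriers and related genes, 4 rose and 2 fell in KO mice and 3 rose and 3 fell in WT mice at day 7, against the same shares of all genes. Cycs, the cytochrome c between complexes III and IV, had 119 ± 15.4 CPM in KO day 7 mice against 94.8 ± 1.99 CPM in KO naive mice and 129 ± 19.4 CPM in WT day 7 mice against 91.5 ± 13.2 CPM in WT naive mice (SD, n = 3 each), with log2 fold changes of 0.33 (SE 0.11, adjusted p = 0.023) and 0.49 (SE 0.11, adjusted p = 0.0013).

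Genes of fuel supply were counted in the same way. Of 23 fatty acid oxidation genes, 16 fell and 1 rose in KO mice and 15 fell and 1 rose in WT mice at day 7, where 14.4% and 15.3% of all genes were called lower and 19.7% and 20.2% higher, with medians of -0.46 and -0.52. Hadhb, the beta subunit of the mitochondrial trifunctional protein, had 99.1 ± 15.1 CPM in KO day 7 mice against 177 ± 4.39 CPM in KO naive mice (SD, n = 3 each), a log2 fold change of -0.83 (SE 0.14, adjusted p = 7.8e-05). Of 26 genes of the citric acid cycle and pyruvate dehydrogenase, 7 fell in each genotype at day 7, and 2 rose in KO mice and 1 in WT mice, with medians of 0.00 and -0.04, near those over all genes. Mpc2, a subunit of the mitochondrial pyruvate carrier, had 46.2 ± 4.14 CPM in KO day 7 mice against 83.2 ± 2.81 CPM in KO naive mice (SD, n = 3 each), a log2 fold change of -0.85 (SE 0.16, adjusted p = 3e-04).

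Of 23 tested regulators of these genes, 1 rose and 2 fell in KO mice and 1 rose and 3 fell in WT mice at day 7, where 34.1% and 35.5% of all genes were called in either direction. Hif1a, the transcription factor of the hypoxia response, rose to 218 ± 31.5 CPM in KO day 7 mice against 111 ± 3.88 CPM in KO naive mice, and stood at 207 ± 10.8 CPM in WT day 7 mice against 100 ± 7.32 CPM in WT naive mice (SD, n = 3 each), with log2 fold changes of 0.98 (SE 0.13, adjusted p = 8.6e-06) and 1.05 (SE 0.13, adjusted p = 3.8e-06). Pparg, a lipid-sensing factor that marks resident alveolar macrophages, had 78.5 ± 22.3 CPM in KO day 7 mice against 171 ± 5.02 CPM in KO naive mice (SD, n = 3 each), a log2 fold change of -1.13 (SE 0.19, adjusted p = 0.00013).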

How the data were processed

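RNA of airspace macrophages from 24 male mice was sequenced as 150 bp paired ends from 200 ng of input, per the labels' protocols. The deposited table holds estimated counts per gene, unnormalized by the authors as far as the file shows, with non-whole values in 3.11 to 3.85% of entries. The submitters' processing notes name mm10, bcl2fastq, DESeq2 1.42.0 and limma 3.58.1; aligner, counting tool and strand setting: not given in the sources used here. Each mouse is listed with runs 1 and 2 but has 1 column, and the labels do not say whether it sums both. A further 24 columns of other samples were not used.

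Counts were rounded. Genes passing edgeR 4.0.16 filterByExpr (count 10, total 15) were scaled by TMM and fitted in 1 quasi-likelihood model of the 8 groups in R 4.3.3 (16 residual degrees of freedom, adjusted p under 0.05 within a comparison). CPM are TMM-scaled. Complex levels are means of log2(CPM + 1). Totals of 24877049 to 47457085 counts set the precision, and reads without molecular identifiers are not independent molecules.

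The genes, lists, comparisons and tests were chosen with earlier results of these data known. Genes named were a panel of catalytic and isoform subunits, the 4 highest and 4 lowest called per comparison with at least 5 CPM in a group, the 3 smallest p where none was called, and the highest and lowest of each complex; Uqcrq, Atp5j2, Itgad and Rn45s were picked once their values had been seen, as were the printed promoters. Positions and exon lengths are from GENCODE M21 and promoters from RefSeq. Replicate libraries of a group differed by more than sampling noise (chi-square per degree of freedom 12.2 to 214). Same-numbered mice of different groups did not deviate together (median r = 0 over 84 pairs, 18 above 0.1), so numbers were not used as pairs. The test was tried on simulated data, with changes set in KO day 7 against KO naive mice in genes drawn from all those tested. It recovered 6% of changes of 1.25-fold, 24.5% of 1.5-fold, 56% of 2-fold and 86% of 4-fold. Of 92 calls 6 were false. Most small changes were thus missed, and a gene that was not called may still differ. Alternatives were other scalings, no filter, DESeq2 1.42.0, limma-voom 3.58.1, the compared groups alone, a replicate block, each mouse left out, a pseudocount of 0.1, Rn45s left out and, chosen after seeing the data, the Rn45s share as a covariate, a length-dependent scaling and 2 WT mice left out together.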

Additional observations from a re-analysis of the deposited data

How the results depend on the processing

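Counts are of the 79 genes called, without the shares of all genes under the same fits. Under DESeq2, limma-voom, another scaling, no filter and Rn45s left out, no count moved by 1.5 times. With the replicate block, for numbers that do not pair the mice, counts were 27 (KO day 7), 27 (WT day 7), 3 (KO day 14), 9 (WT day 14), 6 (KO day 21), 10 (WT day 21), 8 (KO day 21 against 7) and 10 (WT day 21 against 7). Fitting the compared groups alone gave 44, 12 and 3 in KO mice at days 7, 14 and 21, 4 in WT mice at day 7, and 0 in KO and 2 in WT mice for day 21 against day 7. The Rn45s share as a covariate gave 8 in KO mice at day 14 (median 0.13), 15, 17 and 17 in WT mice at days 7, 14 and 21, 17 for KO day 21 against day 7, a KO against WT median of 0.02 at day 14, and a median response difference of 0.17 at day 14. Leaving out both WT mice gave 18 in WT mice at day 14 and median response differences of -0.08 and -0.03 at days 14 and 21. The length-dependent scaling gave 4 in KO and 15 in WT mice at day 14. A pseudocount of 0.1 put complex IV at 0.24 (KO day 7) and 0.14 (KO day 14) above naive. With 1 mouse left out, counts ran from 13 to 26 (KO day 7), 7 to 39 (WT day 7), 0 to 4 (KO day 14), 7 to 12 (WT day 14), 1 to 10 (KO day 21), 6 to 11 (WT day 21), 1 to 9 (KO day 21 against 7) and 1 to 24 (WT day 21 against 7). Medians ran from 0.03 to 0.07 (KO day 14), -0.08 to -0.03 (KO against WT, day 14), and, for the response differences, -0.07 to 0.24, -0.10 to 0.15 and -0.04 to 0.21 at days 7, 14 and 21. No value of a called gene changed sign. The cause of these shifts was not tested. Groups of 3 mice and folds under 1.5 limit what could be called.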

Other observations

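Genes for ribosomal proteins gave another view of the same mice. Of 77 mitochondrial ribosomal protein genes, whose products translate the mitochondrially encoded subunits, 11 rose and 3 fell in KO mice and 17 rose and 4 fell in WT mice at day 7, where 19.7% and 20.2% of all genes were called higher, with medians of 0.09 and 0.13. Of all genes 14.4% and 15.3% were called lower at day 7 in KO and WT mice. At day 21, 1 mitochondrial ribosomal gene rose and 7 fell in KO mice, where 15% of all genes were called higher and 6.89% lower. In WT mice 4 rose and 9 fell at day 21, where 18.8% were called higher and 13.7% lower. Of 76 tested cytosolic ribosomal protein genes, 1 rose and 4 fell at day 7, 0 moved at day 14 and 7 fell at day 21 in KO mice, and in WT mice 2 rose and 6 fell at day 7, 45 fell at day 14 and 62 fell at day 21, where 13.4% and 13.7% of all genes were called lower at days 14 and 21 in WT mice, and 4.84% and 6.89% in KO mice. None of these genes was called for a difference in response between the genotypes. The level of the cytosolic list was 8.61, 8.16 and 8.33 in WT naive mice, highest in the mouse with the highest Rn45s share of that group.

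Shorter genes among the 78 with an exon length, at or under the median of 1631 bases, had a median log2 fold change of 0.28 in KO mice at day 7 and longer ones 0.21, and in WT mice 0.22 and 0.12. Over 12526 genes split at the same length the medians were 0.11 and 0.01 in KO mice and 0.12 and 0.01 in WT mice.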
